A study of Mus musculus with 2 samples.

Results

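This report describes the genes for collagen chains and for the proteins that modify, escort, cleave and cross-link collagen, in skin of newborn mice without keratin 5. The members were every probe set with 1 gene symbol made of Col, digits, a and digits, except Col7a1 and Col17a1, together with symbols that start with P4ha or Plod and with Lox, Serpinh1, Pcolce, Bmp1, Adamts2, Sparc and P4hb. They came to 38 genes on 57 probe sets, out of 8251 genes on the arrays: 29 collagen chains and 9 processing genes. Another 17 mouse genes that meet the rule by name, among them Adamts2, Plod1, Plod2, Col5a3 and Col16a1, had no probe set with 1 symbol and are not analysed here.

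The tested animals were keratin 5 knockout mice (K5-/-), a model of epidermolysis bullosa simplex, a blistering disease in which basal keratinocytes rupture. The controls were wild type mice. RNA from the skin of 6 newborns of each genotype was pooled by genotype and hybridised to a single array per pool, which makes 2 arrays and no replicates. The labels name neither strain nor sex, and variation between animals cannot be seen in a pool. No test was possible, and every value below compares these 2 arrays.

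Collagens are trimers of chains that repeat a glycine at a fixed spacing and wind into a triple helix. The chains are made in the endoplasmic reticulum, where prolyl and lysyl residues are hydroxylated and a dedicated chaperone holds the folded trimer. Outside the cell the propeptides are cut off, and oxidised lysines link the molecules into fibrils. In skin, dermal fibroblasts supply the fibrils of types I, III and V, while sheets of type IV lie under the epidermis and around vessels.

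Values are MAS5 signals, the Affymetrix summary of the probes of a probe set on a linear scale. A ratio is given as log2 of K5-/- over wild type, so a positive value is higher in K5-/- skin. A gene was taken as measured when its signal was above a floor of 246.7 on at least 1 array, which 31 of the 38 members were. The probe sets of 1 gene differed in their log2 ratio by a standard deviation (SD) of 0.30 over 838 genes, and that is the available scale of technical error. It holds no variation between animals, pools or hybridisations. Signals of different probe sets depend on their probes, so levels are compared within a gene and never between genes. For the same reason a signal under the floor is not evidence that a gene was not expressed.

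None of the 31 measured members was 2-fold different. Of all 5976 measured genes, 1.54% were 2-fold or more higher and 0.703% were 2-fold or more lower. At 1.5-fold, 0 members were higher, against 7.63% of all measured genes. The 1 member that was 1.5-fold lower was Col4a5, against 5.27% of all measured genes. By direction alone, 20 members were higher in K5-/- skin and 11 were lower, that is 64.5% higher beside 53.9% of all measured genes, of which 46.1% were lower. The median log2 ratio of the members was 0.14, beside 0.03 over all measured genes. In size, 11 members (35.5%) differed by at least 1 SD of the probe set spread, beside 41.7% of all measured genes. The differences of single members below are small and are to be read on that scale.

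**Figure D1:**
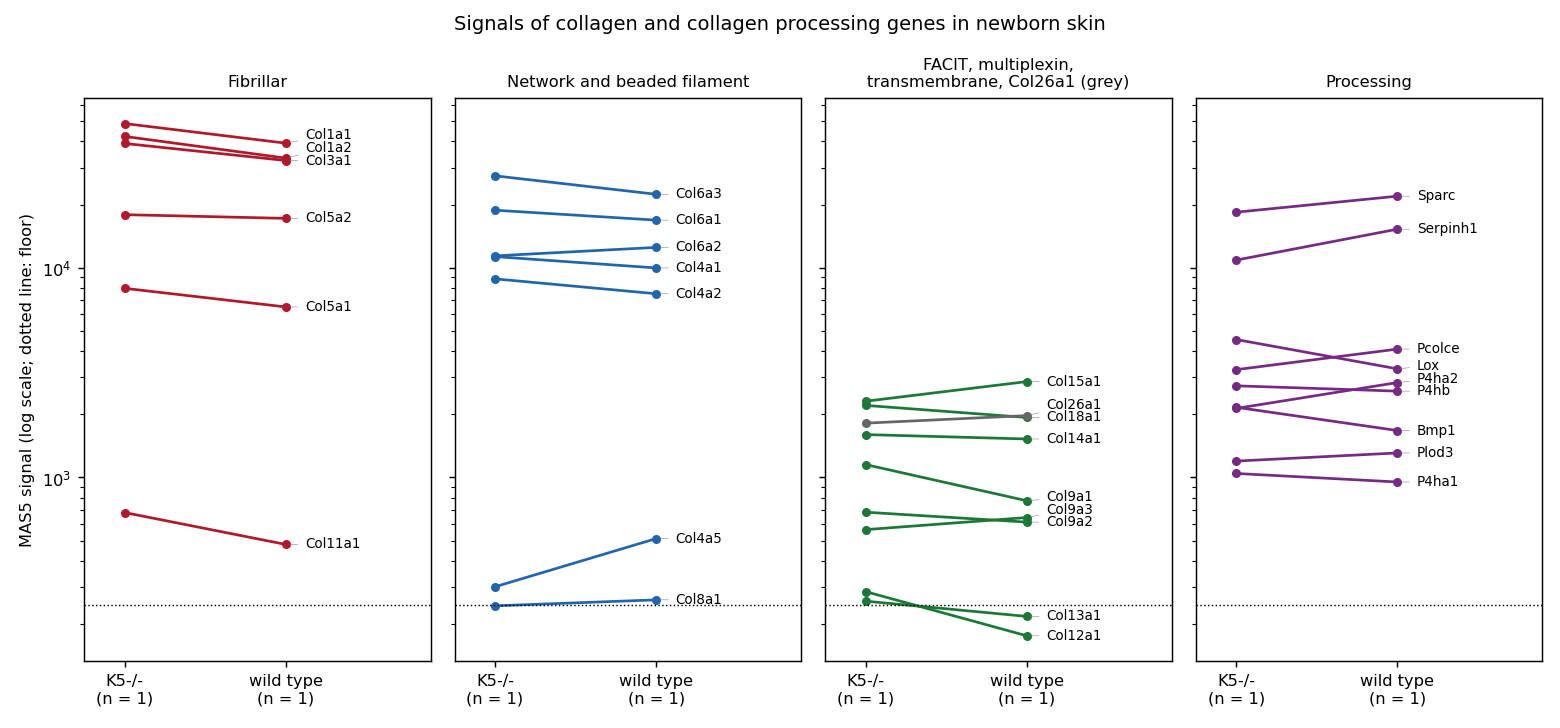
MAS5 signal (log scale) of each measured member on the K5-/- array (left) and the wild type array (right), in 4 panels by class, with the floor of 246.7 as a dotted line. Each line joins the 2 values of 1 gene, and all 6 fibrillar lines are higher on the K5-/- side, while Serpinh1 and Sparc are lower there. Heights of different genes are not comparable.

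The fibrillar collagens were the class in which every measured gene was higher in K5-/- skin, 6 of 6, beside 53.9% of all measured genes. Their log2 ratios ran from 0.06 to 0.51 with a median of 0.30, about 1 SD of the probe set spread (0.30). The count rests on the brightest probe set of each gene, and it would be 5 of 6 by the dimmer probe sets of Col3a1. No fibrillar gene reached 1.5-fold. Col1a1, which encodes the alpha 1 chain of type I collagen, the main fibril of dermis, had a signal of 48702 in K5-/- skin and 39261 in wild type skin, a log2 ratio of 0.31. Its partner Col1a2, the alpha 2 chain, read 42293 in K5-/- skin and 33320.1 in wild type skin, a log2 ratio of 0.34. By these probe sets both chains of type I were thus higher on the same array by nearly the same amount, with log2 ratios that differed by 0.03. With quantile normalization the log2 ratio was 0.17 for Col1a1 and 0.25 for Col1a2. A second probe set of each gene had the same direction, with a log2 ratio of 0.39 for Col1a1 and 0.23 for Col1a2.

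Type III and type V collagen form fibrils together with type I, and type V limits fibril diameter. Col3a1 read 39143 in K5-/- skin and 32457 in wild type skin, a log2 ratio of 0.27. Its other 2 probe sets did not show this difference, with log2 ratios of -0.04 and -0.06, so the direction of Col3a1 depended on the probe set. Col5a1 read 7981 in K5-/- skin and 6504 in wild type skin, and its 2 probe sets had log2 ratios of 0.30 and 0.31. The Col5a2 signals were 17912 in K5-/- skin and 17196 in wild type skin, a log2 ratio of 0.06. Col3a1 and Col5a2 lie next to each other on chromosome 1 with 0 protein-coding genes between their starts. Their log2 ratios differed by 0.21, less than 0.42, which is 1 SD of a difference of 2 genes by the probe set spread.

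Col11a1 belongs to type XI, a fibrillar collagen best known from cartilage. It was dim, with 681 in K5-/- skin and 479 in wild type skin, and its log2 ratio of 0.51 was the highest of the class in the setting used here. With the floor at the 60th percentile of all values the ratio was a bound of 0.05. The other cartilage fibril genes stayed under the floor in both groups: Col2a1, the main cartilage collagen, read 142 in K5-/- skin and 138 in wild type skin, and Col11a2 read 36.8 in K5-/- skin and 37.7 in wild type skin.

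Among the network collagens, the main basement membrane chains were slightly higher in K5-/- skin and the X-linked chain Col4a5 was lower. Type IV collagen forms the sheet of basement membranes. Col4a1 read 11301 in K5-/- skin and 9978 in wild type skin, a log2 ratio of 0.18. Col4a2 read 8851 in K5-/- skin and 7516 in wild type skin, a log2 ratio of 0.24. These chains assemble together, and their ratios differed by 0.06.

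Col4a5, a chain of type IV that is used in fewer basement membranes, had 301 in K5-/- skin and 512 in wild type skin. That is 1.70-fold lower, a log2 ratio of -0.76 and the lowest of the measured members in the setting used here. The K5-/- signal lay near the floor, and the ratio was -0.47 with a pseudocount in place of the floor, where Serpinh1 was lower at -0.48. With the floor at the 60th percentile Col4a5 had no ratio. Col4a3 read 5.20 in K5-/- skin and 11.1 in wild type skin, and Col4a4 read 24.5 in K5-/- skin and 18.2 in wild type skin, so neither had a ratio. Col8a1, a chain of a network collagen of vessels and the eye, stood at the floor with 244 in K5-/- skin and just above it with 261 in wild type skin, at least 1.06-fold lower. Col10a1, the collagen of hypertrophic cartilage, read 60.6 in K5-/- skin and 10.4 in wild type skin, both under the floor.

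Col4a1 and Col4a2 lie head to head on chromosome 8 and are read in opposite directions from a shared start region. Their start regions are printed here because the 2 genes had nearly the same ratio, and that of Col1a2 because it encodes a type I chain. Each window runs from 250 bases before to 50 bases after the annotated start (RefSeq, GRCm38.p6), and capitals mark CCAAT on either strand (ATTGG on the printed strand where it lies on the opposite one). The Col4a1 window is chr8:11312777-11313076 on the minus strand, that of Col4a2 is chr8:11312555-11312854 on the plus strand, and that of Col1a2 is chr6:4505368-4505667 on the plus strand. The Col4a1 and Col4a2 windows share 78 bases, which end each printed window and are the reverse complement of each other.
Col4a1: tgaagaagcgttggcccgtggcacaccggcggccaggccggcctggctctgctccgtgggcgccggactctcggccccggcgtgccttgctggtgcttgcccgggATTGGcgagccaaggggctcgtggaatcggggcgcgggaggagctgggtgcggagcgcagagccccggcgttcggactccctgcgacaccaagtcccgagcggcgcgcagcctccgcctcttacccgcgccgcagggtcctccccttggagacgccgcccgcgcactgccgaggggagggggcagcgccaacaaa
Col4a2: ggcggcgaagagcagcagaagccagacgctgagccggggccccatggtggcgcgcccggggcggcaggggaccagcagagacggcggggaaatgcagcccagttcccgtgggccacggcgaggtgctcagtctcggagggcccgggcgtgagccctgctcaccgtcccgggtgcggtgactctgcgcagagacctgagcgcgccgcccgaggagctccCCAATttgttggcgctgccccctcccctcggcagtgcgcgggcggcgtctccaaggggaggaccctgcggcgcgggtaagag
Col1a2: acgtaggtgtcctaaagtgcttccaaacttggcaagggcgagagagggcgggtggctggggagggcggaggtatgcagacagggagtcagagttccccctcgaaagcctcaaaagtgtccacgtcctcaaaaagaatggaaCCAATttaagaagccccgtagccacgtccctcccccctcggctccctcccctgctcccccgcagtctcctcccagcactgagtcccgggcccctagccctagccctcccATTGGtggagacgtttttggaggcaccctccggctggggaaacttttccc

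CCAAT is the letter string bound by the factor NF-Y in many promoters. It occurred once in the Col4a1 window, from base 106 on the opposite strand, and once in the Col4a2 window, from base 219. The Col1a2 window held 2 matches, from base 142 and, on the opposite strand, from base 251. Of the 27 members with a window in the RefSeq table, 9 (33.3%) held the string in at least 1 window, beside 41.1% of 27025 genes. A match is a description of the letters and not evidence of binding.

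Type VI collagen forms beaded filaments that link cells to the interstitial matrix, and its 3 main chains were divided. Col6a3 read 27435 in K5-/- skin and 22401 in wild type skin, a log2 ratio of 0.29. Col6a1 read 18812 in K5-/- skin and 16866 in wild type skin, a log2 ratio of 0.16, while its second probe set had a ratio of -0.02. Col6a2 read 11393 in K5-/- skin and 12507 in wild type skin, a log2 ratio of -0.13. Col6a1 and Col6a2 are neighbours on chromosome 10, and their ratios differed by 0.29. The gap between Col6a3 and Col6a2 was 0.43, about the 0.42 of the probe set spread for a difference. Over the network and beaded filament genes, 4 of 7 measured were higher, beside 53.9% of all measured genes, with a median log2 ratio of 0.16.

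The fibril-associated collagens with interrupted triple helices (FACIT) sit on the surface of fibrils. Col9a1, a chain of type IX, which coats cartilage fibrils, read 1152 in K5-/- skin and 775 in wild type skin. It was 1.49-fold higher, a log2 ratio of 0.57. This was the highest ratio of a member above the floor on both arrays in the setting used here, while Lox was higher with quantile normalization (0.53 against 0.52) and Col12a1 was higher with the floor at the 25th percentile (0.70). The other chains of type IX had smaller or opposite ratios: Col9a2 read 683 in K5-/- skin and 613 in wild type skin, a log2 ratio of 0.16. For Col9a3 the signals were 564 in K5-/- skin and 644 in wild type skin, a log2 ratio of -0.19, so the ratios of Col9a1 and Col9a3 differed by 0.76. With the floor at the 60th percentile of all values (660), Col9a3 had no ratio and that of Col9a2 was a bound of 0.05. Cartilage markers gave little signal on these arrays: of 5 on the array, Matn1, Matn3 and Hapln1 were at the floor on both, and Acan and Chad were above it on 1 array each. The summed signal of Acan and Chad was 519 in K5-/- skin and 504 in wild type skin.

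Of the FACIT genes of soft tissue, Col14a1 was nearly equal on the arrays and Col12a1 was near the floor. Col14a1, which encodes a collagen of dermal fibril bundles, read 1602 in K5-/- skin and 1526 in wild type skin, a log2 ratio of 0.07. Col12a1, a FACIT of tension-bearing tissue, read 286 in K5-/- skin and 176 in wild type skin, at least 1.16-fold higher. With a floor at the 25th percentile both values counted, and its log2 ratio was 0.70. Col19a1 read 203 in K5-/- skin and 144 in wild type skin, and Col22a1 read 6.70 in K5-/- skin and 10.1 in wild type skin, all under the floor.

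Multiplexins are basement membrane collagens that release anti-angiogenic fragments. Col15a1 read 2310 in K5-/- skin and 2866 in wild type skin, a log2 ratio of -0.31, which was the lowest of the FACIT, multiplexin and transmembrane class. Col18a1 read 2207 in K5-/- skin and 1932 in wild type skin, a log2 ratio of 0.19, and its 4 probe sets above the floor ran from -0.24 to 0.21. The transmembrane collagen gene Col13a1 read 257 in K5-/- skin and 218 in wild type skin, at least 1.04-fold higher. Over this class 6 of 8 measured genes were higher, beside 53.9% of all measured genes, with a median log2 ratio of 0.11. Col26a1, which fits none of these classes, read 1816 in K5-/- skin and 1973 in wild type skin, a log2 ratio of -0.12. The anchoring collagens left out by the rule were opposite in direction, with a log2 ratio of 0.23 for Col7a1 and -0.29 for Col17a1.

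**Figure D2:**
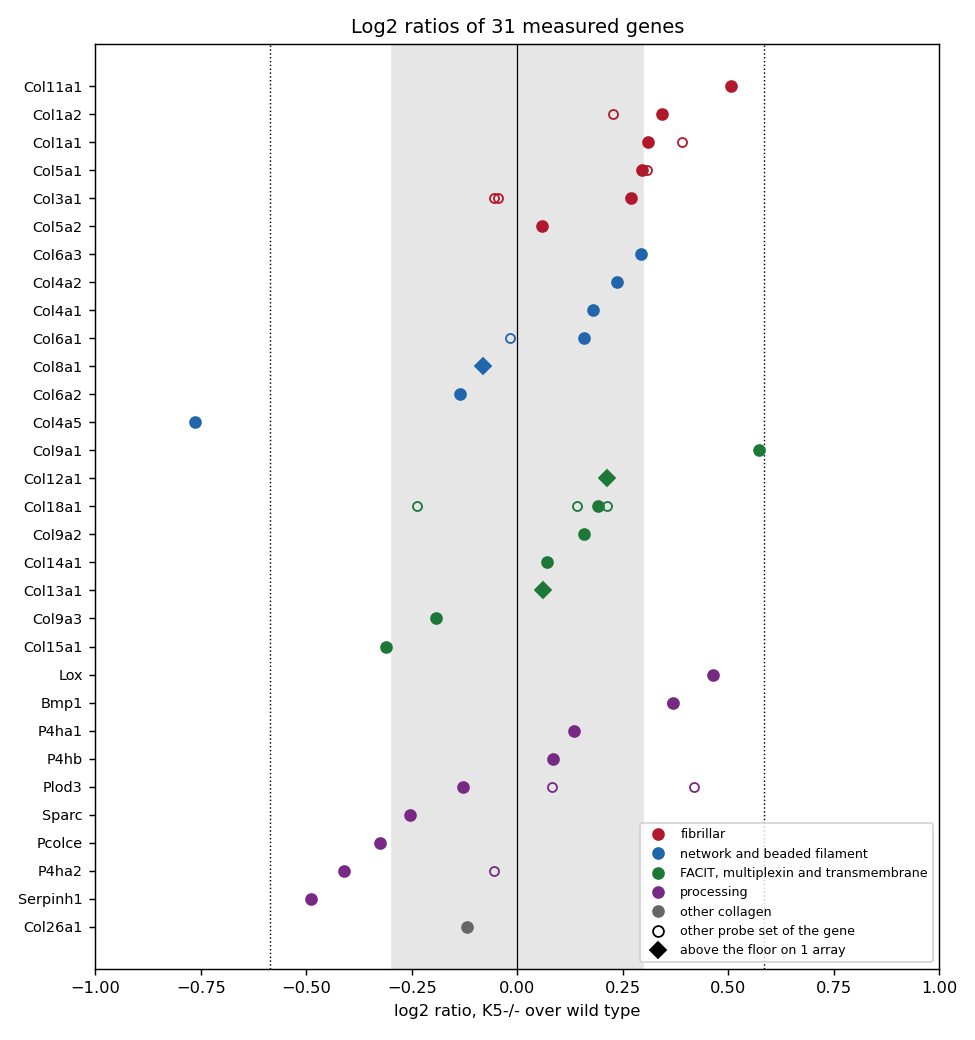
Log2 ratio of K5-/- over wild type for the 31 measured members, 1 row per gene and coloured by class. Filled symbols are the probe set with the highest mean signal (diamonds where only 1 array was above the floor), open circles are the gene's other probe sets that passed the floor on each array, the grey band is 1 SD of the probe set spread (0.30) on either side of 0, and dotted lines mark 1.5-fold. Col4a5 alone lies beyond a dotted line, and open circles of Col3a1, Col6a1, Col18a1 and Plod3 lie across 0 from the filled symbol.

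The processing genes were divided, with 4 of 9 higher and 5 lower in K5-/- skin, beside 53.9% and 46.1% of all measured genes. Their median log2 ratio was -0.13, with a range from -0.49 to 0.46. The count and the median rest on the direction of Plod3: with the mean over probe sets 5 of 9 were higher and the median was 0.0843. No gene of the class reached 1.5-fold. The lowest was Serpinh1, the collagen-specific chaperone of the endoplasmic reticulum, with 10875 in K5-/- skin and 15273 in wild type skin. That is 1.40-fold lower, a log2 ratio of -0.49, and between -0.49 and -0.40 under all 8 alternative settings. Serpinh1 and the type I chain Col1a1, its client, therefore had ratios of opposite sign that differed by 0.80 in the setting used here. The ratio of Col1a1 lay between 0.17 and 0.35 over the settings.

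Prolyl 4-hydroxylase makes the hydroxyproline that stabilises the triple helix, and lysyl hydroxylases prepare the sites of sugars and cross-links. P4ha2, a catalytic subunit, read 2134 in K5-/- skin and 2836 in wild type skin, a log2 ratio of -0.41, with -0.06 from its second probe set. The other catalytic subunit gene, P4ha1, read 1045 in K5-/- skin and 952 in wild type skin, a log2 ratio of 0.14. P4hb, which encodes the disulfide isomerase that serves as the beta subunit, read 2736 in K5-/- skin and 2581 in wild type skin, a log2 ratio of 0.08. Its second probe set was under the floor, with 187 in K5-/- skin and 191 in wild type skin, and gave no ratio. Plod3, a lysyl hydroxylase that also adds sugars, read 1197 in K5-/- skin and 1309 in wild type skin, a log2 ratio of -0.13, but its 2 dimmer probe sets had ratios of 0.08 and 0.42. The direction of Plod3 is therefore not settled by these probe sets.

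Outside the cell, the proteinase and the cross-linking enzyme were higher while the enhancer of the proteinase was lower. Lox, the lysyl oxidase that starts cross-linking, read 4549 in K5-/- skin and 3297 in wild type skin, 1.38-fold higher and a log2 ratio of 0.46. Bmp1, the proteinase that removes the C-propeptide, read 2162 in K5-/- skin and 1675 in wild type skin, and both of its probe sets had a log2 ratio of 0.37. Pcolce, which encodes the enhancer of that proteinase, read 3267 in K5-/- skin and 4094 in wild type skin, a log2 ratio of -0.33. The ratios of Bmp1 and Pcolce differed by 0.69, where 1 SD of a difference by the probe set spread is 0.42. That SD is a scale and not a cut-off. This pair, like that of Col1a1 and Serpinh1, was chosen after the values were seen. Sparc, a secreted collagen-binding protein, read 18400.4 in K5-/- skin and 21943 in wild type skin, a log2 ratio of -0.25.

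**Figure D3:**
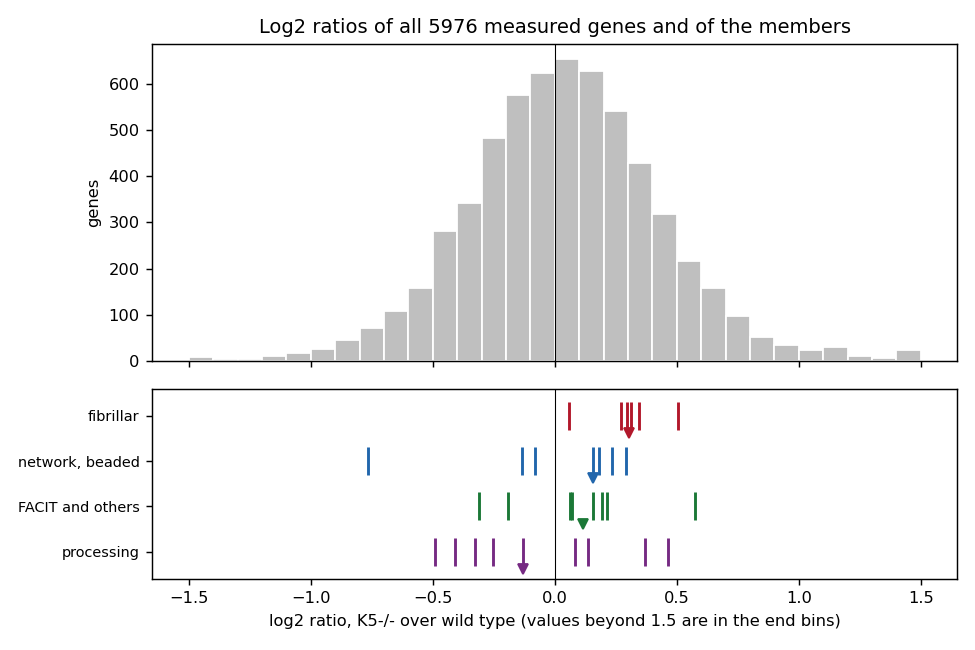
Top, number of genes by log2 ratio of K5-/- over wild type for all 5976 measured genes. Bottom, each measured member except Col26a1 as a tick by class, with a triangle at the class median (0.30 for fibrillar, 0.16 for network and beaded filament, 0.11 for FACIT, multiplexin and transmembrane, and -0.13 for processing genes). All 6 fibrillar ticks lie right of 0, and the leftmost tick is Col4a5.

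Other genes of collagen assembly were taken from a list of biosynthesis genes outside the rule, of which 13 were measured. In K5-/- skin 5 were higher and 8 lower, beside 53.9% and 46.1% of all measured genes. Of these 13, 0 were 2-fold different, and the median log2 ratio was -0.19. The lowest were Pdia6 (1966 in K5-/- skin and 2869 in wild type skin, a log2 ratio of -0.55) and Pdia4 (1056 in K5-/- skin and 1482 in wild type skin, -0.49), disulfide isomerases of the endoplasmic reticulum. Of the other endoplasmic reticulum genes of the list, Crtap (-0.19) and Ppib (-0.24), which act in the prolyl 3-hydroxylation complex, were lower. So were P3h3 (-0.28), P3h4 (-0.35) and Pdia3 (-0.40). Hspa5 was nearly equal (-0.06) and Colgalt1 was higher (0.18). The highest of the list were Loxl1, a lysyl oxidase of elastic fibres, with 596 in K5-/- skin and 330.4 in wild type skin (0.85), and Sec23a, a coat protein of the vesicles that carry procollagen (0.55).

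Genes whose products organise fibrils were higher in 8 of 11 measured, beside 53.9% of all measured genes, with a median log2 ratio of 0.14. Tnxb, which encodes the collagen-binding tenascin X, was 2.23-fold higher, with 3366 in K5-/- skin and 1513 in wild type skin. Thbs2, a thrombospondin, had a log2 ratio of 0.93. The lowest were Tgfbi at -0.25 and Dpt, the dermatopontin gene, at -0.30. The collagen breakdown list, which also holds inhibitors of breakdown, had 5 of 8 measured genes higher, beside the same 53.9%. The higher genes were the inhibitor genes Timp1 (0.52), Timp2 (0.45) and Timp3 (0.03), the fibroblast protease gene Fap (0.46) and Mmp14 (0.24). Mrc2 (-0.12), Ctsk (-0.13) and Mmp11 (-0.19) were lower. The collagenase and gelatinase genes Mmp2, Mmp8, Mmp9 and Mmp13, and Mmp3, stayed under the floor in both groups. Of the collagen receptors, Ddr1 had a log2 ratio of 0.22 and Itgb1 one of 0.17, and Ddr2, the receptor of fibrillar collagens on fibroblasts, was at least 1.63-fold higher.

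**Figure D4:**
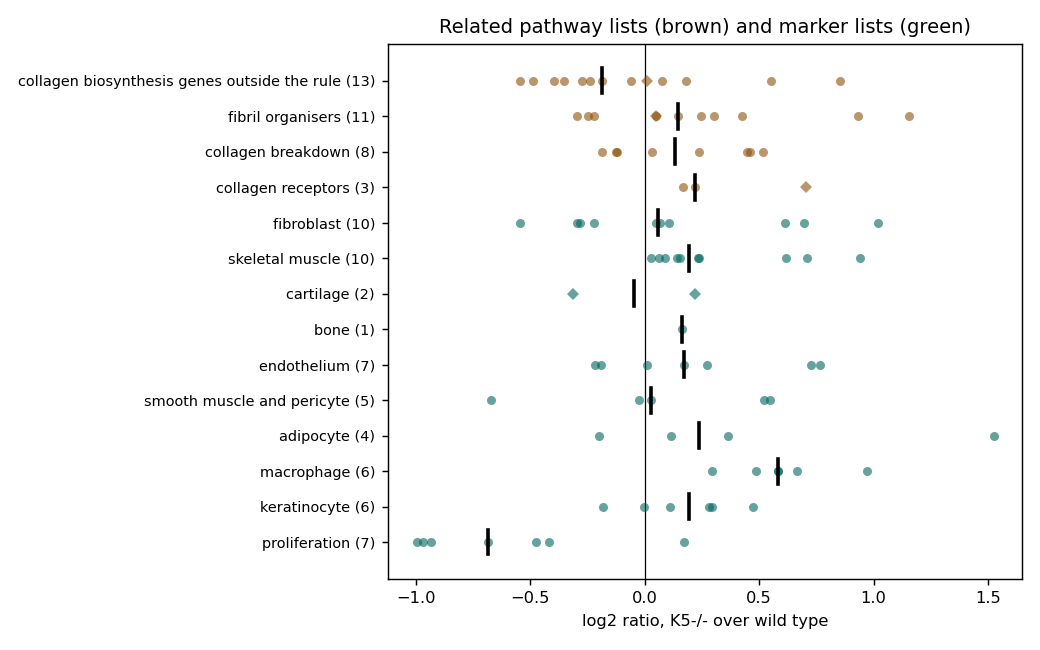
Log2 ratio of K5-/- over wild type for measured genes of 4 related pathway lists (brown) and 10 marker lists (green), with the number measured in brackets and a black bar at the median. Diamonds are genes above the floor on 1 array. All 6 macrophage markers and all 10 muscle markers lie right of 0, while fibroblast markers spread from -0.54 to 1.02.

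The label of the tissue is epidermis in the source name and skin in the titles and protocol. Dermal genes read far above the floor in both groups, not only the fibrillar collagens: the fibroblast proteoglycan gene Dcn had 23155 in K5-/- skin and 22400.2 in wild type skin. Of 11 fibroblast markers on the array, 6 were higher and 4 lower, beside 53.9% and 46.1% of all measured genes. Their median log2 ratio was 0.06, beside 0.03 over all measured genes. The list was led by Pdgfra (2.03-fold higher) and Pdgfrb (0.69) and ended with Dpt (-0.30) and Thy1 (-0.54). Vim was at the floor. The summed signal of the fibroblast markers was 70074 in K5-/- skin and 69406 in wild type skin. That sum is weighted to the brightest probe sets, those of Dcn and of Lum (15573 in K5-/- skin and 18146 in wild type skin). In bulk samples, more cells of a type and more RNA per cell cannot be told apart.

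Markers of skeletal muscle and macrophages were all higher in K5-/- skin, while those of endothelium, smooth muscle and adipocytes were divided. Over all measured genes 53.9% were higher. The part of these cell types in the results was not tested. All 10 muscle markers were higher, from Des (0.03) and Acta1 (0.06) to Myog (0.71) and Myh8 (0.94). Their summed signal was 80843 in K5-/- skin and 68967 in wild type skin. Much of that sum was Acta1, with 41501 in K5-/- skin and 39732 in wild type skin. All 6 macrophage markers were higher, from Cd68 (0.29) and Lyz2 (0.49) to Mrc1 (0.67) and Adgre1 (0.97), with 8531 in K5-/- skin and 5733 in wild type skin. Of 7 endothelial markers 5 were higher, with Kdr at 0.76 and Tek at 0.73 against Cdh5 at -0.19 and Tie1 at -0.22. Smooth muscle markers were divided, with Myh11 at 0.55, Tagln at 0.52, Rgs5 at -0.02 and Acta2 at -0.67. Of the adipocyte genes Lep was 2.88-fold higher and Lpl was at 0.36, with Adipoq at 0.11 and Fabp4 at -0.20. Of the bone genes, Alpl was at 0.16, while Ibsp, Phex and Dmp1 were under the floor in both groups.

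Among keratinocyte markers the differentiation genes Flg (0.47) and Lor (0.29) were the highest and Perp (-0.0047) and Krt10 (-0.18) the lowest. The targeted gene Krt5 read 81.2 in K5-/- skin and 46.6 in wild type skin, under the floor, as were Krt14 and Krt15, so the genotype labels could not be checked. Proliferation markers were lower in 6 of 7, beside 46.1% of all measured genes. Plk1 was at -0.97 and Cdk1 at -0.996, against Mki67 at 0.17 and Top2a at -0.42. Signals from the 3 prime and 5 prime ends of a transcript had a ratio of 1.04 in K5-/- skin and 1.06 in wild type skin for beta-actin, and of 0.841 in K5-/- skin and 0.831 in wild type skin for Gapdh.

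**Figure D5:**
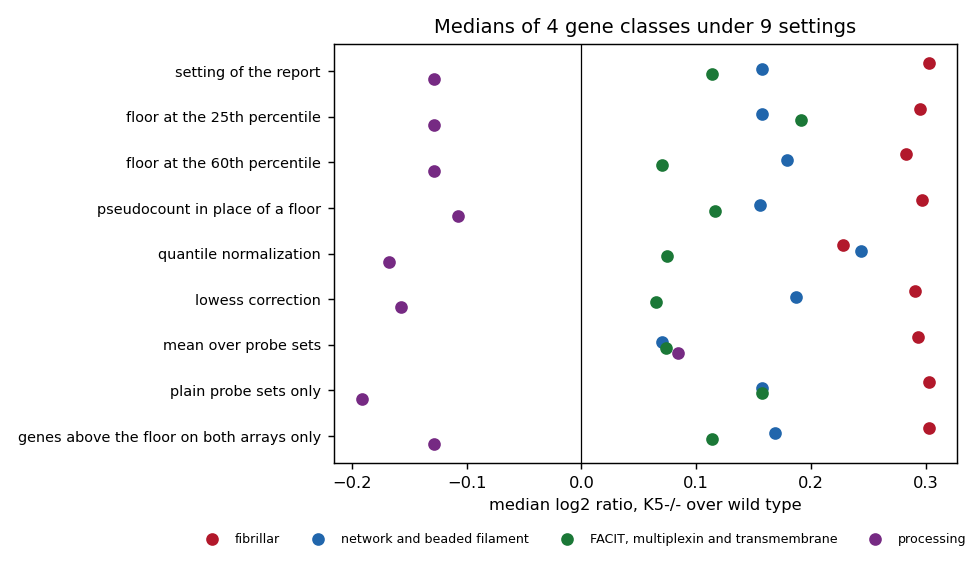
Median log2 ratio of K5-/- over wild type of the 4 gene classes (colours) under the setting of the report and 8 alternatives. The fibrillar median stays between 0.23 and 0.30, and the processing median is below 0 except with the mean over probe sets, where it is 0.08.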

How the data were processed

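Gene expression was measured on 2 arrays, 1 for pooled skin RNA of 6 newborn K5-/- mice and 1 for that of 6 newborn wild type mice. Per the labels' protocols, RNA was isolated with TRIzol, pooled by group and purified on a column, and cRNA was made from 2 µg. The authors deposited a linear intensity for each probe set, made with MAS5 per the submitters' processing notes. The version of MAS5 and its scaling target are not given in the sources used here, and detection calls were not used here. MAS5 scales each array to 1 overall level, so a change in total RNA cannot be seen.

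Of 12422 probe sets that are not controls, 10833 have 1 gene symbol in the platform annotation, 396 several and 1193 none, and 10817 matched a RefSeq gene table (GRCm38.p6) by Entrez identifier. Arrays were scaled to a common 2% trimmed mean (993.1 for K5-/- and 993.2 for wild type before scaling), and values below the 40th percentile (246.7) were raised to it before log2. Where several probe sets name a gene, that with the highest mean signal stands for it. A ratio with 1 side at the floor is a lower bound, and with both sides there it is not given. With 1 array per group no test was run, and the number of arrays limits the precision. Medians and counts describe the lists. A summed signal is weighted to the brightest probe sets of its list and does not measure the share of a cell type. The calculation was tested on simulated data in which bright genes changed by more than any member did here. That test therefore does not cover differences of the size reported. Python 3.11.15, NumPy 2.4.6, pandas 2.3.3 and statsmodels 0.14.6 were used. Alternatives were other floors, a pseudocount, quantile and lowess normalization, other choices of probe set and genes above the floor on both arrays only.

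The members, classes and lists were chosen with earlier results of these data known. All measured members are named. Of each related list, the 2 highest and 2 lowest genes above the floor on both arrays and any 2-fold gene are named. Some other genes of these lists, such as Crtap and Ppib, are named as well. Sequences of start regions are from RefSeq.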

Additional observations from a re-analysis of the deposited data

How the results depend on the processing

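No paired analysis was possible because each group has 1 array and the labels give no replicate numbers. The count of members 2-fold different was 0 in either direction under all 8 alternatives. At 1.5-fold, the count of higher members was 1 with the floor at the 25th percentile (Col12a1, whose wild type signal then counts), and the count of lower members was 0 with the floor at the 60th percentile, where Col4a5 is at the floor on both arrays, and 0 where a pseudocount replaced the floor. With the mean over probe sets the median of all members was 0.0771, and that of the processing genes turned to 0.0843, because the probe sets of Plod3 point in opposite directions and its mean was 0.12. The other class medians kept their sign under every alternative. Of 237 values of single members under the alternatives, 235 moved by less than the probe set spread of 0.30, and the 2 that moved more were Col11a1 under the higher floor (a bound of 0.05) and Col12a1 under the lower one (0.70). Plod3 and Col13a1 changed sign under 1 alternative each, Col13a1 to -0.02 with the lowess correction. The median of all measured genes lay between -0.00364 and 0.0547 over the settings. The signal over the floor limits Col4a5, Col8a1, Col9a2, Col9a3, Col11a1, Col12a1 and Col13a1.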
